A study of Mus musculus with 16 samples.

Results

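Measured here were 7 mature microRNAs (miRNAs) of one cluster on the mouse X chromosome, named mmu-miR-532-5p, mmu-miR-532-3p, mmu-miR-188-5p, mmu-miR-362-5p, mmu-miR-362-3p, mmu-miR-501-3p and mmu-miR-500 on the array (mmu, for mouse, is left off below). They were picked by name, as 7 of the 604 mouse miRNAs present on both array designs of the study. The choice was made with their array signals in all 8 populations already known, so levels and differences of these 7 are given as a description, with errors and without p-values. Another 2 arms of the same hairpins, miR-188-3p and miR-501-5p, are on the arrays and are no member of the set.

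The arrays carried RNA of 8 cell populations sorted straight from female C57Bl/6 mice, 6 weeks old, with no culture and no treatment. Bone marrow of 15 pooled mice gave each of 3 progenitors, all lineage-negative and CD135+. These were MP, which were CD117+ and lacked CD115, MDP (progenitors of macrophages and dendritic cells), which carried both CD117 and CD115, and CDP (dendritic cell progenitors), which were CD117 low and CD115+. Bone marrow of 5 pooled mice gave Gr1+ monocytes, sorted as CD11b+ CD115+ Gr1+, and plasmacytoid dendritic cells (PDC), sorted as B220+ CD11c int SiglecH+ CD317+. Spleen gave CD11c+ dendritic cells (DC) in pools of 8 mice, divided into CD4+ DC, CD8+ DC (also CD86+) and CD4-CD8- DC. Each population had 2 biological replicates, so there were 16 arrays, and the labels give only the surface markers of each sort, not its purity. The first replicates were all hybridised to array design 1 and the second ones to design 2, so replicate number and design cannot be told apart.

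A miRNA is cut from a hairpin in a longer primary transcript, and the 5p and 3p arms of a hairpin can each become a mature miRNA. Bases 2 to 8 of the mature miRNA, the seed, do most of the pairing with target messenger RNAs, so miRNAs with the same seed share many predicted targets. Hairpins that lie close together on a strand are often carried by the same primary transcript, while the amount of each mature arm also depends on processing and decay. MDP give rise to monocytes and to CDP, and CDP to PDC and to the DC of the spleen. PDC are known for making type I interferon when they sense viral nucleic acids, whereas the spleen DC are specialised in presenting antigen to T cells.

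RefSeq (GRCm38.p6) lists 5 hairpins of the cluster on the minus strand of chromosome X, from 7237683 to 7248497, a span of 10.8 kb. In the order of transcription they are Mir532 (X, 7248402 to 7248497), Mir188 (7247989 to 7248056), Mir362 (7241982 to 7242046), Mir501 (7241243 to 7241351) and Mir500 (7237683 to 7237774). The file headers use the older build mm9, in which the probed arms span X 6814874 to 6825606. All 5 hairpins lie inside the annotated span of Clcn5, a gene for a chloride and proton exchanger, downstream of the first of its 2 listed starts and upstream of the second. RefSeq mature sequences could be matched to 6 of the 7 members and to both further arms. They are shown because the probes, the shared seeds and the near copies described below all rest on them, with the seed in capitals.
miR-532-3p, X 7248419 to 7248440: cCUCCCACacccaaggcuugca
miR-188-5p, X 7248031 to 7248051: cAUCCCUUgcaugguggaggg
miR-188-3p, X 7247992 to 7248012: cUCCCACAugcaggguuugca
miR-362-5p, X 7242019 to 7242042: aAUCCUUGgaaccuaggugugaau
miR-362-3p, X 7241984 to 7242005: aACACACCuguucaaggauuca
miR-501-5p, X 7241307 to 7241328: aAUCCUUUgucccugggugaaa
miR-501-3p, X 7241270 to 7241291: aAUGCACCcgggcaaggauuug
miR-500 (miR-500-3p in RefSeq), X 7237695 to 7237716: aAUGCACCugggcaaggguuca

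Only miR-500 and miR-501-3p share a seed (AUGCACC) among the sequences shown. Their matures are identical at 18 of 22 bases (81.8%), and from miR-501-3p to miR-500 the changes are C9U, A18G, U21C and G22A, counted from 1 at the 5′ end. The seed of miR-362-3p (ACACACC) is also that of miR-329-3p from chromosome 12, which is on the arrays as miR-329 and was detected on 0 of 16. The seeds of miR-362-5p and miR-188-5p recur in miR-500-5p and miR-7061-3p, which are not on the arrays. On these arrays each miRNA is read by probes of different lengths that start at its 3′ end, and the bases that the longest probe pairs with are in capitals below for 3 members whose results turn on the probes.
miR-188-5p, probed bases: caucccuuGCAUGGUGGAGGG
miR-501-3p, probed bases: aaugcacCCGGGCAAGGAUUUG
miR-500, probed bases: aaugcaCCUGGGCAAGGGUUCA
All 4 bases that differ between miR-501-3p and miR-500 fall in the probed stretch. The longest miR-188-5p probe, of 13 bases, does not reach the seed, and it is 2 mismatches from its nearest other listed mouse miRNA (miR-7020-5p). For the other 6 members the nearest miRNA had 3 to 6 mismatches, the lowest being 3 for miR-500 against miR-362-3p. Cross-hybridisation between near copies was not tested.

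Of the spots on an array, 16.7% to 25.4% were well above background and 0 were saturated, and 116 to 174 miRNAs were detected on an array. A miRNA was called detected on an array when any of its probes had a share of 0.5 or more of its spots well above background. Levels are log2 values. On each array their 0 is the 75th percentile over the 88 miRNAs seen on all 16 arrays, and values below a floor (-5.30 on design 1, -5.78 on design 2) were raised to it. The myeloid miR-223 was highest in Gr1+ monocytes (4.54 and 4.30 on designs 1 and 2) and lowest in PDC (0.52 and 0.09). The progenitor miRNA miR-126-3p was highest in MP (-1.56 and -1.68) and was detected neither in Gr1+ monocytes nor in the spleen DC. In PDC it was detected, at -3.90 and -3.39. The lymphocyte miRNA miR-150 was at -1.11 and -0.55 in PDC and at -4.90 and -4.87 in CDP. It was not particular to PDC, being at -1.33 and -0.12 in CD4-CD8- DC and at -1.44 and -0.83 in CD8+ DC. In CD4+ DC miR-150 was lower, at -2.49 and -1.43. The leukocyte miRNA miR-142-3p was detected on all 16 arrays. Of 12 stromal, muscle and epithelial marker miRNAs, 0 were detected on both PDC arrays.

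All 7 members were detected on both PDC arrays, against 5 in Gr1+ monocytes and in CD8+ DC, 4 in CD4+ DC and in CD4-CD8- DC, 3 in MP and 2 in MDP and in CDP. Over all miRNAs the arrays of designs 1 and 2 detected 129 and 171 in PDC and 150 and 174 in CD8+ DC. They detected 123 and 142 in Gr1+ monocytes, 131 and 163 in CD4+ DC, and 124 and 147 in CD4-CD8- DC. In MP they detected 133 and 166, in MDP 128 and 116, and in CDP 128 and 138. These are counts per array, while the member counts need detection on both arrays, so they are not like for like. Of the arms, miR-500 and miR-188-5p were detected on all 16 arrays. The other 5 were detected on 13 (miR-532-5p), 10 (miR-362-3p), 9 (miR-532-3p), 3 (miR-362-5p) and 2 arrays (miR-501-3p). All 7 passed the filter of detection on both arrays of at least 1 population, which left 175 miRNAs, and miR-362-5p and miR-501-3p passed it through PDC alone. On both array designs 5 of the 7 members had their highest level in PDC, and 13 of the 175 miRNAs did so (7.43%). Since the signals chose the members, nothing is read from that contrast.

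**Figure D1:**
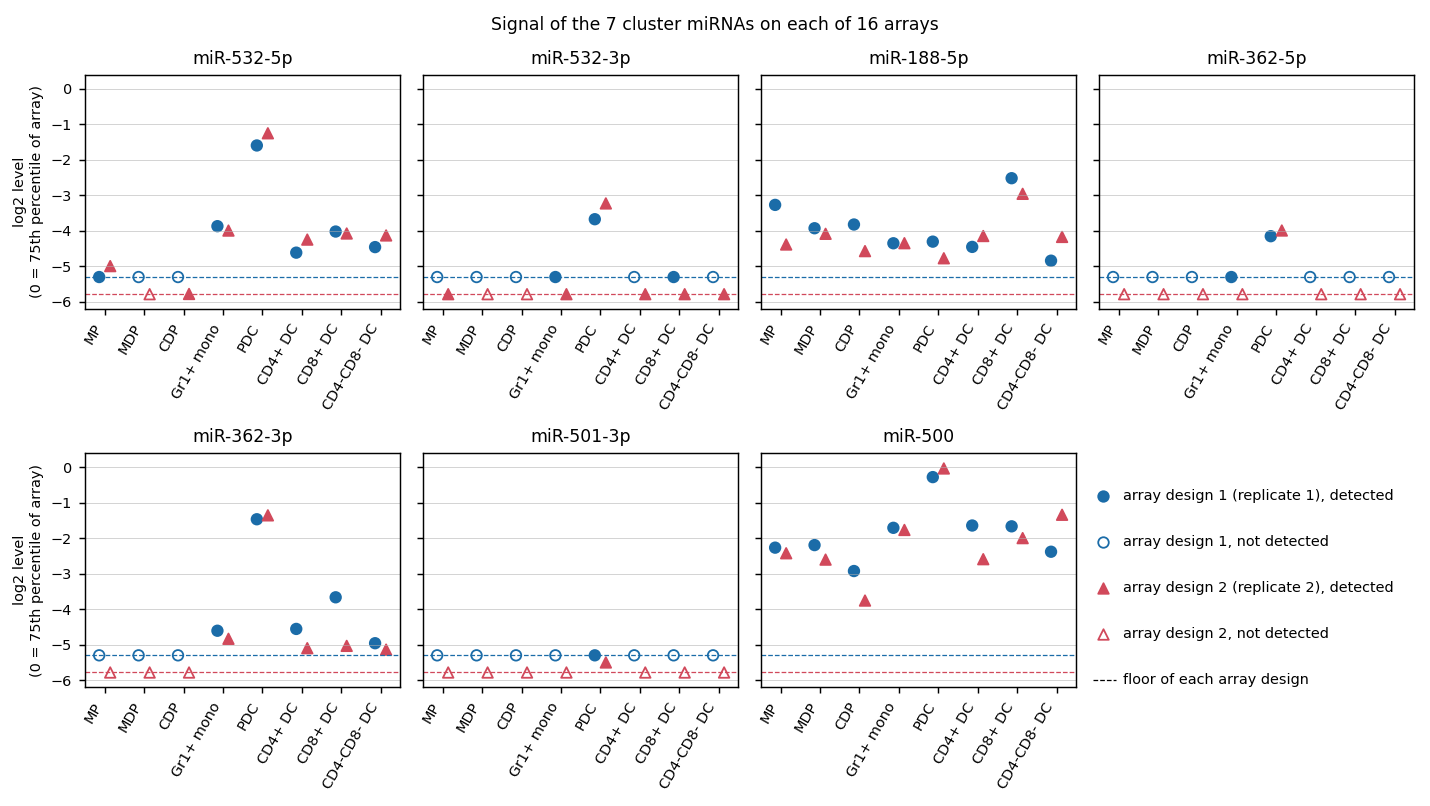
The log2 level of each cluster miRNA (y axis, 0 is the 75th percentile of the array) in the 8 populations (x axis), one point per array, with circles for array design 1, triangles for design 2, open symbols where the miRNA was not detected and dashed lines at the floor of each design. Both PDC points stand above all others for miR-532-5p, miR-532-3p, miR-362-5p, miR-362-3p and miR-500, while miR-188-5p is highest in CD8+ DC.

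Starting from the hairpin transcribed first, miR-532-5p was at -1.60 and -1.25 in PDC on designs 1 and 2. Gr1+ monocytes followed at -3.87 and -3.99, CD8+ DC at -4.02 and -4.07, CD4-CD8- DC at -4.46 and -4.13, and CD4+ DC at -4.61 and -4.25. MP were at the floor (-5.30) on design 1 and at -4.99 on design 2, CDP were at or next to the floor on both, and MDP were not detected. The PDC arrays were thus well apart from every other array, the differentiated cells lay in between, and the progenitors were at the bottom. The log2 difference between PDC and CDP was 4.11 ± 0.24 (standard error of the limma fit, n = 2 per population here and below), 3.70 on design 1 and 4.52 on design 2. Against the 3 spleen DC populations together it was 2.83 ± 0.20, and against Gr1+ monocytes 2.50 ± 0.24. Against MDP, in which it was not detected, the PDC signal was at least 9.60-fold higher. In such a bound the dim population stands, on each array, at the dimmest probe well above background, or at its own value if that is higher.

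The other arm of that hairpin, miR-532-3p, was at -3.67 and -3.23 in PDC and at the floor of both designs in the other 7 populations. It was detected on both arrays of Gr1+ monocytes and CD8+ DC, on 1 array of MP, CD4+ DC and CD4-CD8- DC, and on none of MDP or CDP, but with a mean over its probes below the floor. The PDC signal was at least 3.33-fold that of CDP and at least 2.36-fold that of MDP. The difference of 2.09 ± 0.22 from CDP is a value against the floor, and so are all differences given below against a population at the floor, whose standard errors are too small because floored values do not vary.

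From Mir362, the arm miR-362-3p was 4.13 ± 0.28 higher in PDC than in CDP on the log2 scale, a value against the floor that becomes 5.05 with the floor at the 1st percentile. Its level was -1.47 and -1.36 in PDC. Next came CD8+ DC at -3.66 and -5.03, then Gr1+ monocytes at -4.61 and -4.83, CD4+ DC at -4.55 and -5.10, and CD4-CD8- DC at -4.96 and -5.14. It was detected on 0 of the 6 progenitor arrays. The ranges of CD8+ DC, Gr1+ monocytes and CD4+ DC overlapped between neighbours once the mean of each array design was removed, whereas PDC overlapped no population. PDC exceeded Gr1+ monocytes by 3.31 ± 0.28 and the spleen DC by 3.33 ± 0.23 on the log2 scale. Its PDC signal was at least 13.7-fold that of CDP, at least 12.7-fold that of MP and at least 9.68-fold that of MDP.

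Its partner on the hairpin, miR-362-5p, was at -4.15 and -3.99 in PDC and at the floor everywhere else. Outside PDC it was detected on a single array, Gr1+ monocytes replicate 1. The bounds for PDC were at least 2.17-fold over CDP, 2.01-fold over MP, 1.54-fold over MDP, 2.40-fold over CD4+ DC, 1.98-fold over CD8+ DC and 2.07-fold over CD4-CD8- DC.

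miR-500, the last hairpin's 3p arm, was seen on every array, so that its differences involve no floor. It was at -0.28 and -0.04 in PDC, near the 75th percentile of the widely detected miRNAs. Gr1+ monocytes were at -1.71 and -1.77, CD8+ DC at -1.67 and -2.0, CD4-CD8- DC at -2.38 and -1.34, and CD4+ DC at -1.65 and -2.59. MP were at -2.27 and -2.43, MDP at -2.20 and -2.60, and CDP at -2.93 and -3.76. Neighbours from Gr1+ monocytes down to MDP overlapped in their ranges, PDC lay above all of them and CDP below. The log2 difference between PDC and CDP was 3.18 ± 0.41, against MDP 2.24 ± 0.41, against MP 2.19 ± 0.41, against the spleen DC 1.78 ± 0.33 and against Gr1+ monocytes 1.58 ± 0.41. CDP thus had the lowest miR-500 of the 8 populations and PDC the highest.

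miR-501-3p, which shares its seed with miR-500, was at the floor on design 1 and at -5.50 on design 2 in PDC, and at the floor in all other populations. It was detected on the 2 PDC arrays and on 0 of the other 14. The log2 difference between PDC and CDP was 0.14 ± 0.09, so on the mean of its probes PDC was not separated from the rest.

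miR-188-5p was the exception among the members. It was highest in CD8+ DC (-2.52 and -2.96), and then MP (-3.27 and -4.38), MDP (-3.93 and -4.08), CDP (-3.82 and -4.57), CD4+ DC (-4.45 and -4.14), Gr1+ monocytes (-4.35 and -4.35), CD4-CD8- DC (-4.84 and -4.17) and PDC (-4.30 and -4.77). From MP to PDC each population overlapped the next, and CD8+ DC did not overlap MP. PDC minus CDP was -0.34 ± 0.37 and PDC minus the spleen DC was -0.69 ± 0.30 on the log2 scale. The value against CDP was 0.04 with the brightest probe, -0.59 with quantile normalization and -0.87 with arrays scaled over all miRNAs. CD8+ DC exceeded CD4+ DC by 1.56 ± 0.37 and CD4-CD8- DC by 1.77 ± 0.37. Being highest in CD8+ DC on both designs was frequent on these arrays, at 41 of 175 miRNAs (23.4%). The Mir188 hairpin starts 0.44 kb after that of Mir532, whose 2 arms were highest in PDC.

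**Figure D2:**
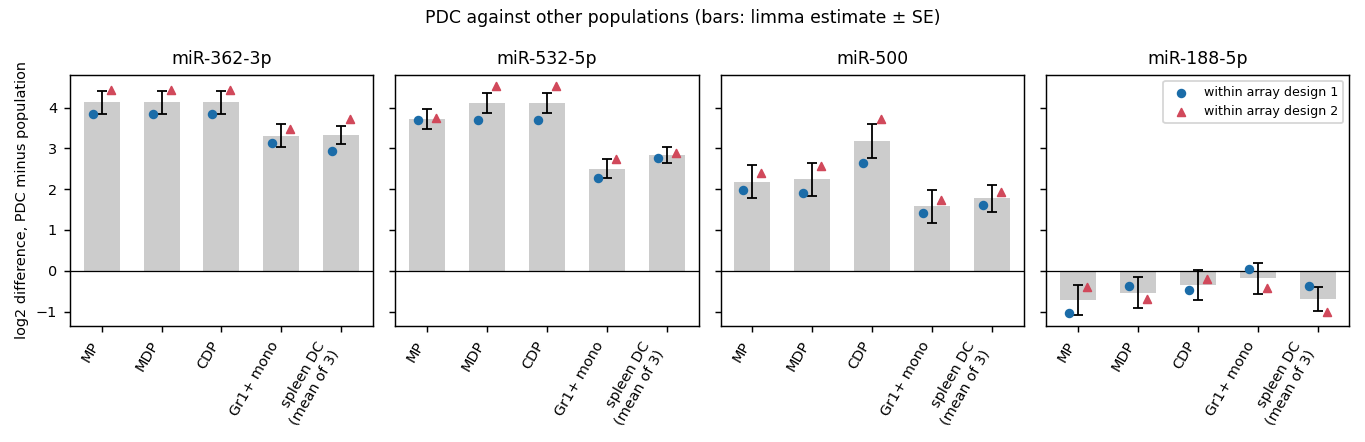
The log2 difference between PDC and each of 5 comparators (y axis), for miR-362-3p, miR-532-5p, miR-500 and miR-188-5p, with bars for the limma estimate, error bars for its standard error and points for the difference within each array design. All points of miR-362-3p, miR-532-5p and miR-500 are above 1, and miR-188-5p runs from -1.03 to 0.05.

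Counted together, 5 of the 7 members were at least 2-fold higher in PDC than in CDP on both array designs, where 12.0% of the 175 miRNAs were. The same count of 5 was reached against MDP (14.3% of all), MP (10.9%), Gr1+ monocytes (13.1%) and the spleen DC (9.14%). Those 5 comparisons share the 2 PDC arrays and are not separate evidence, and the choice of members used them. The 5 arms were miR-532-5p, miR-532-3p, miR-362-5p, miR-362-3p and miR-500, which come from 3 of the 5 hairpins. For miR-532-3p and miR-362-5p every one of these differences is a value against the floor. The bounds for miR-362-5p were only 1.54-fold over MDP and 1.98-fold over CD8+ DC. miR-532-3p has bounds over CDP and MDP only, and neither arm has one over Gr1+ monocytes. Without such a bound, a 2-fold difference is not established for these arms. With normexp background correction, which adds an offset of 50 to each signal, the count was 3 against CDP, MDP, MP and the spleen DC, it was 0 against Gr1+ monocytes, and 1 member was highest in PDC on both designs. In bulk RNA of sorted pools, a level that differs because fewer cells carry a miRNA and one that differs because each cell carries less cannot be told apart.

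Outside PDC fewer members passed the 2-fold limit. miR-532-3p, miR-362-5p and miR-501-3p could not pass it, as they lay at the floor in every population but PDC. Spleen DC exceeded CDP at least 2-fold on both designs for 1 member, miR-500 (1.40 ± 0.33, 16.6% of all miRNAs), while miR-532-5p was at 1.28 ± 0.20 but reached only 0.94 on design 1. With replicate 1 of CDP left out, which leaves only design 2 to judge, the count was 2. With replicate 1 of CD8+ DC left out the count was 0. miR-500 did not pass when arrays were scaled over all miRNAs (0.69), with quantile normalization (0.65 on design 1) or with normexp (0.78). Gr1+ monocytes exceeded MDP for 1 member, miR-532-5p (1.61 ± 0.24, 5.14% of all), with miR-362-3p at 0.82 ± 0.28 and miR-500 at 0.66 ± 0.41. With normexp miR-532-5p was at 0.97 and did not pass. CD8+ DC exceeded CD4+ DC (11.4% of all) and CD4-CD8- DC (11.4% of all) for 1 member in each comparison, miR-188-5p. It passed neither when arrays were scaled over all miRNAs, nor with quantile normalization or normexp. No member differed at least 2-fold in one direction on both designs between CD4+ and CD4-CD8- DC (1.14% of all), MDP and MP (3.43%) or CDP and MDP (0.0%). Between progenitors miR-362-3p could not pass either, being at the floor in all of them. The same holds for miR-532-5p between CDP and MDP, where it lay at or next to the floor. The nearest to 2-fold in these comparisons was miR-500, at -0.94 ± 0.41 for CDP minus MDP (-0.73 on design 1 and -1.15 on design 2). Without replicate 1 of either population it passed, but only design 2 was then left to judge it.

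The r values below are for miR-500, miR-532-5p, miR-362-3p and miR-188-5p, the 4 arms detected on 10 or more arrays. Across the 16 arrays, with the mean of each design removed, Pearson's r was 0.96 between miR-362-3p and miR-532-5p, 0.91 between miR-500 and miR-532-5p and 0.87 between miR-500 and miR-362-3p. Without the 2 PDC arrays these were 0.83, 0.76 and 0.65 over 14 arrays. The arrays share probes, scaling and floor, replicates of a population are not separate populations, and part of the miR-362-3p values lies at the floor, so the r values are descriptive. miR-188-5p had r of -0.105 with miR-500, -0.152 with miR-362-3p and -0.186 with miR-532-5p over the 16 arrays. Without the PDC arrays its r turned positive, at 0.22 with miR-500, 0.41 with miR-362-3p and 0.16 with miR-532-5p.

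Among miRNAs outside the cluster, the 6 most like the mean profile of the members were miR-592 (r = 0.92, 16 arrays), miR-128 (0.85), miR-103 (0.79), miR-107 (0.78), let-7g (0.76) and let-7i (0.73). miR-592, from chromosome 6, was at -3.05 and -2.83 in PDC and was detected on 0 of the other 14 arrays. miR-128 was at -1.10 and -0.43 in PDC, and its next population was MP at -2.81 and -3.60. The other 4 differed far less between populations, as let-7g shows with 1.62 and 1.75 in PDC and 0.45 and 0.31 in CDP. The mean profile contains the members themselves, which were chosen on these signals, so their own r is partly fixed by that. On this measure 5 members had r of 0.92 to 0.98, miR-501-3p had 0.73 and miR-188-5p had -0.07, which placed it at rank 107 of the 175. Of these, miR-532-3p and miR-362-5p lay at the floor on 14 arrays and miR-501-3p on 15. The r of these arms therefore only sets PDC against the floor, and nothing is read from it.
The 5 miRNAs closest to miR-188-5p itself were miR-1897-5p (r = 0.96), miR-1895 (0.95), miR-680 (0.94), miR-721 (0.93) and miR-483 (0.93). They share no hairpin with it, and were named after their values were seen. CD8+ DC replicate 1 had the most spots well above background on design 1 (20.2%) and replicate 2 the most on design 2 (25.4%), and the part of this in the miR-188-5p result was not tested.

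Marker lists were set beside the PDC result. The summed level of 5 lymphocyte miRNAs, in percent of the scaling value, was 531.0 and 476.5 in PDC, between 171.3 and 322.9 in the progenitors and monocytes, and between 368.7 and 677.2 in the spleen DC. Its members moved differently. miR-181a was at 0.61 and 0.83 in PDC, above all other populations on both designs, of which the highest were CDP on design 1 (-1.07) and MP on design 2 (-0.93). The leukocyte miRNA miR-142-3p was highest in the spleen DC (1.20 to 2.57, against 1.51 and 0.76 in PDC), and there it had the highest level of the 5. miR-181b was at -1.36 and -0.95 in PDC, against -0.92 and -1.08 in CDP. miR-155 was at -3.48 and -3.39 in PDC, below MP and the spleen DC on both designs. The part of lymphocyte miRNAs in the PDC result was not tested. The summed level of 4 myeloid miRNAs was lowest in PDC (447.7 and 249.6) and highest in Gr1+ monocytes (3146.2 and 2531.8). Within that list miR-22 was at -2.08 and -2.34 in PDC and at or next to the floor in the 3 progenitors. miR-142-5p was at -1.71 and -2.04 in PDC and between -2.66 and -3.61 in the progenitors. The 6 stem and progenitor miRNAs summed to 24.3 and 31.9 in PDC, 47.2 and 43.7 in CDP and 153.7 and 217.6 in MP. Of these, 4 were detected on both PDC arrays, against 2 in Gr1+ monocytes, CD4+ DC and CD4-CD8- DC and 1 in CD8+ DC. miR-126-3p, miR-130a and miR-196b were detected in PDC but in neither Gr1+ monocytes nor spleen DC. In contrast, miR-125b-5p was detected on all 16 arrays. The part of progenitor miRNAs in the PDC result was not tested. The summed level of the 3 erythroid miRNAs was 13.0 and 35.8 in PDC and highest in CD8+ DC (128.8 and 54.7), the population with the highest miR-188-5p. That sum rests mainly on miR-451, at 0.31 and -0.96 in CD8+ DC. miR-144 was detected on 0 of 16 arrays and miR-486 on 3. The part of erythroid miRNAs in the miR-188-5p result was not tested.

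**Figure D3:**
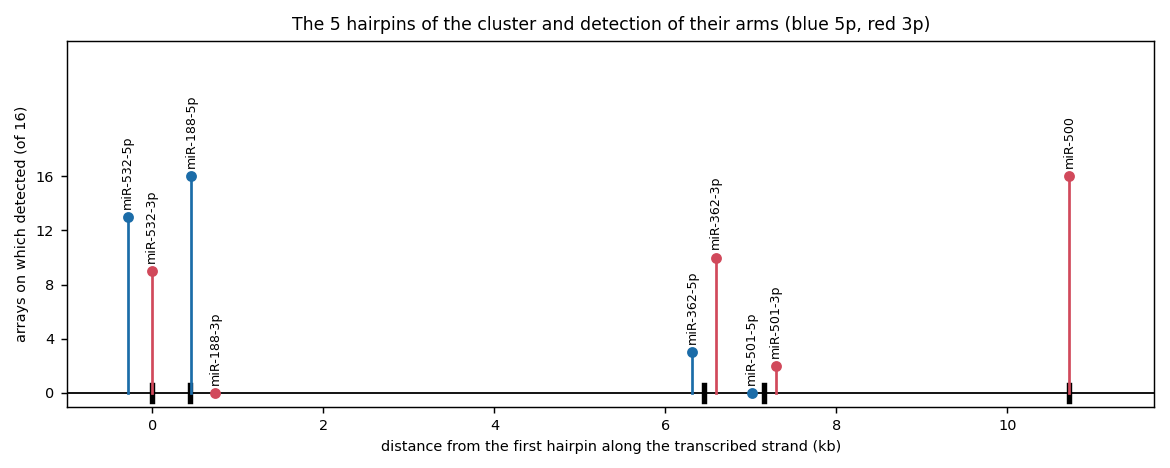
The 5 hairpins of the cluster (black ticks) by distance from the first hairpin along the transcribed strand (x axis, kb), with the number of the 16 arrays on which each arm was detected (y axis), 5p arms in blue and 3p arms in red, drawn beside their hairpin for legibility. miR-188-5p and miR-500 reach 16 arrays, while miR-188-3p and miR-501-5p stand at 0.

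The further arms miR-188-3p and miR-501-5p had 0 of 317 spots well above background, PDC included, and so were not among the miRNAs tested. Levels and detection of different arms are not set against each other, since probes differ in length and base content.

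How much of an arm the array saw depended on the length of the probe. The 15-base probe of miR-532-3p gave 115.0 and 280.9 units of processed signal in PDC on designs 1 and 2, its 14-base probe gave 34.5 and 81.0, and its 12-base probe gave -5.6 and -2.34, at background. For miR-501-3p the 15-base probe gave 22.5 and 77.3 in PDC against medians of 0.71 and 4.45 over the other 7 populations, while its 12- and 13-base probes were below 0 in PDC. For miR-362-5p the 18-base probe gave 64.5 and 124.5 in PDC against medians of 9.57 and 7.24, and the 15-base probe was below 0. The mean over probes therefore places these 3 arms lower than their longest probe does. With the brightest probe of each miRNA used instead, 6 of the 7 members were highest in PDC on both designs (10.3% of all 175), miR-501-3p being the added one. The log2 difference between PDC and CDP was then 0.90 for miR-501-3p, 3.01 for miR-532-3p and 2.00 for miR-362-5p.
For miR-188-5p the signal rose with probe length in PDC and in the median of the other populations, but not steadily in CD8+ DC. From 10 to 13 bases, the PDC signal went from 16.6 to 35.7 on design 1 and from 23.1 to 48.6 on design 2, and the median of the other populations from 28.2 to 39.9 and from 23.4 to 28.9. On design 1 the 10-base probe had 0 of 4 PDC spots well above background and the 13-base probe 5 of 5, while on design 2 all 4 probes had 5 of 5. The highest of the other populations was CD8+ DC for each of the 4 probes on both designs. From 10 to 13 bases it gave 65.4, 71.5, 68.15 and 68.8 on design 1, and 53.9, 66.3, 58.4 and 61.1 on design 2. The longest miR-188-5p probe had 69.2% G and C and those of its 5 closest miRNAs had 33.3% to 69.2%.

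**Figure D4:**
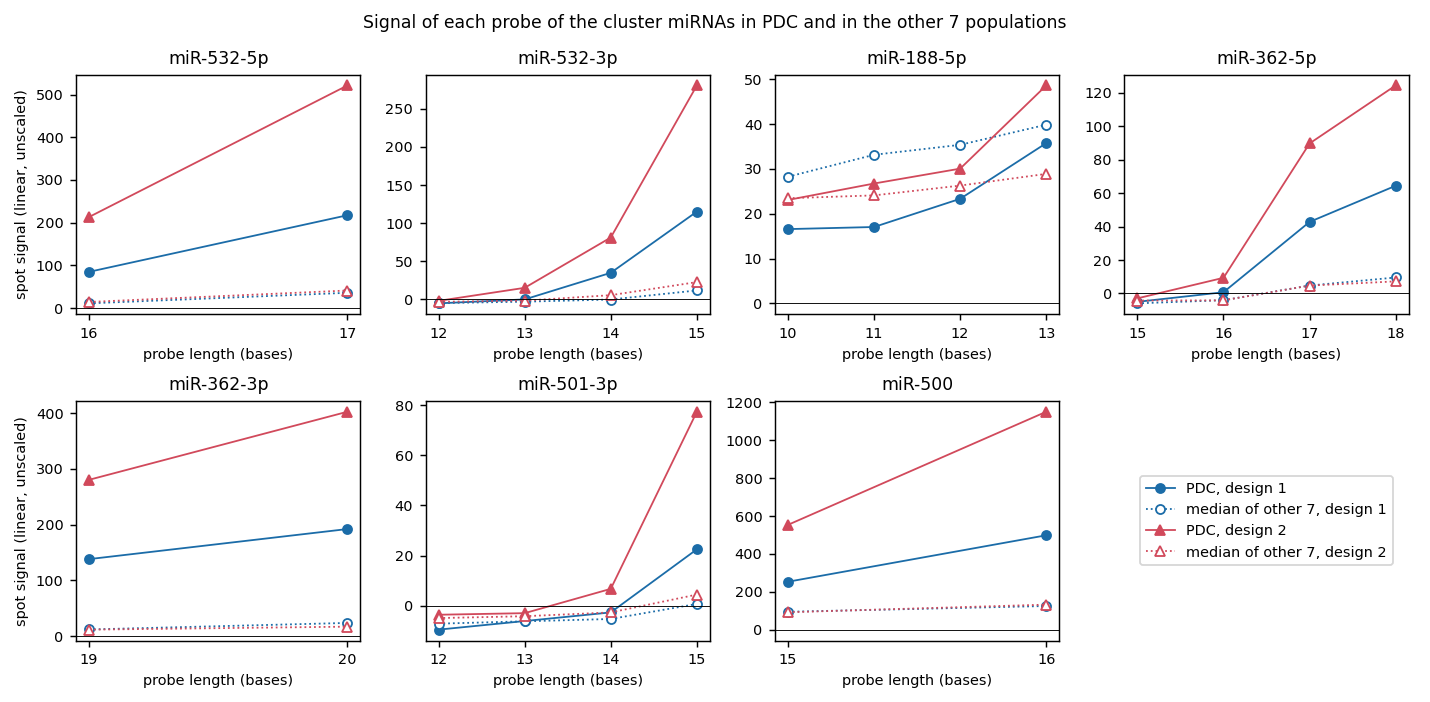
Processed signal of each probe (y axis, linear, unscaled, with its own range in each panel) against probe length in bases (x axis), with filled symbols and solid lines for PDC, open symbols and dotted lines for the median of the other 7 populations, and colours for the array designs. The PDC signal of miR-532-3p, miR-362-5p and miR-501-3p leaves background only at the longer probes. In the miR-188-5p panel all signals lie below 50 units.

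Over the probes and arrays well above background, the median coefficient of variation between spots of a probe was 7.7% for miR-500, 14.2% for miR-362-3p, 15.3% for miR-532-5p and 13.0% for miR-188-5p. This is the technical spread within an array and says nothing of the spread between samples.

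Since all 5 hairpins lie within Clcn5, the first Clcn5 promoter listed in RefSeq is shown, 250 bases before to 50 after the start, which lies 70.9 kb ahead of the first hairpin. E-proteins, a family of transcription factors that includes the PDC regulator E2-2 (Tcf4), bind the E-box CANNTG, which reads the same on both strands, and its matches are in capitals.
Clcn5 promoter, GRCm38.p6, chrX:7319309-7319608, minus strand: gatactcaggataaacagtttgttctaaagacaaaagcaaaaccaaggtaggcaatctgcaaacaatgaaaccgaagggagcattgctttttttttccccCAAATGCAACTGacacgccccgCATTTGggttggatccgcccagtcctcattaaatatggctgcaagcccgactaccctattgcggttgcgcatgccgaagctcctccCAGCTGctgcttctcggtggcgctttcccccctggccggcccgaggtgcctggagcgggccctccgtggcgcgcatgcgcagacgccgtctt
It holds 4 matches, the first and the second of them side by side. At least 1 match occurs in 72.3% of the 32817 mouse promoters of this length, with a median of 1, and 6.5% hold at least as many. A match is a run of letters, and neither binding nor transcription from this start was measured.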

How the data were processed

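Total RNA was labelled with Cy3 and hybridised to Agilent miRNA arrays, 1 array per sample, per the labels. The intensity of each spot is the processed signal as deposited, on a linear scale, with background removed and no scaling between arrays. Per the file headers this was done by Feature Extraction 10.7.3.1, and 9.1 is the version in the submitters' processing notes. The 7 members, the marker lists and the comparisons were chosen with earlier results of these data known.

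Outlier spots were dropped, and spots of a probe and then probes of a miRNA were averaged. Signals were divided by their array's 75th percentile over 88 miRNAs seen on all 16 arrays (333.4 to 876.2 units), floored at the 5th percentile of detected values of its design and put on the log2 scale. limma 3.58.1 (R 4.3.3) fitted the 175 miRNAs with a mean per population and the array design as block. The fit was tested on simulated data that had no floor, so that test does not cover values at the floor. Same-numbered arrays deviated together (r of 0.30 to 0.92, median 0.57, over 28 pairs of populations), and the number marks the array design. "At least 2-fold" means a log2 difference of 1 or more, in one direction, on both designs. Where leaving out an array took a population off a design, the other design alone was used. Named miRNAs are the members, their cluster neighbours, the 6 outside miRNAs most like the members' mean profile, those sharing a seed and 4 reference miRNAs. Of 703 array miRNAs, 524 matched a RefSeq mature sequence. Having 2 samples per population limits the precision. The alternatives were normexp background correction, 2 other scalings, the brightest probe, another floor, other filters, no block and each array left out.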

Additional observations from a re-analysis of the deposited data

Results flagged for a closer look

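miR-188-5p had differences of opposite sign from CDP in PDC and in CD8+ DC. On the log2 scale PDC minus CDP was -0.34 and CD8+ DC minus CDP was 1.46, each with the same sign on both array designs. The PDC value of -0.34 is smaller than its standard error of 0.37, and with the brightest probe it was 0.04. With quantile normalization it was -0.59 ± 0.22, and with arrays scaled over all miRNAs -0.87 ± 0.28. A difference of PDC from CDP thus depended on the processing, and none is claimed. The CD8+ DC value of 1.46 is given without a standard error or a value under other processing. Spleen DC minus CDP was 0.35 ± 0.30. It was 0.03 ± 0.18 with quantile normalization and -0.37 ± 0.23 with arrays scaled over all miRNAs. With those settings CD8+ minus CD4+ DC fell from 1.56 to 1.09 and 0.79. CD8+ minus CD4-CD8- DC fell from 1.77 to 1.18 and 1.045. The 1.46 thus depended on the processing too. The difference between the PDC and the CD8+ DC values was not tested, as the values had been used to choose the members.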

How the results depend on the processing

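Fitting without the replicate block left the log2 difference of miR-362-3p between PDC and CDP at 4.13. The count of members at least 2-fold higher in PDC than in CDP stayed at 5, and no other count changed. This was fixed in advance, as every population had an array on each design and counts were made within designs. The standard error of the miR-362-3p difference rose from 0.28 to 0.395. Under normexp, 1 member was highest in PDC on both designs. The count at least 2-fold different was 3 for PDC against CDP, MDP, MP and the spleen DC, and 0 for PDC against Gr1+ monocytes, spleen DC against CDP, Gr1+ monocytes against MDP, and CD8+ DC against CD4+ and CD4-CD8- DC. There, miR-362-5p was at -0.017 for PDC minus MDP and -0.84 for PDC minus Gr1+ monocytes, and miR-532-3p at -0.58 for PDC minus Gr1+ monocytes. The median of all tested miRNAs for PDC minus Gr1+ monocytes was then -0.96, against 0.0 in the processed signals, and the cause was not tested. With only miRNAs detected on all arrays, just 2 members entered, 1 was highest in PDC, 1 passed in each PDC comparison, and 0 passed for Gr1+ monocytes against MDP. Scaling over all miRNAs and quantile normalization each gave 0 for spleen DC against CDP and for CD8+ DC against CD4+ and CD4-CD8- DC. Scaling over all miRNAs moved the median of all tested miRNAs for CD8+ minus CD4+ DC from 0.23 to -0.22, and turned miR-500 (-0.48), miR-532-5p (-0.38) and miR-362-3p (-0.29) to the CD4+ side, while miR-188-5p stayed at 0.79. With the floor at the 1st percentile, 3 members passed for spleen DC against CDP and 2 for Gr1+ monocytes against MDP. Where leaving out an array took a population off a design, its comparisons were judged on the other design alone. Leaving out each array gave 0 to 2 members for spleen DC against CDP, 1 to 2 for CD8+ against CD4-CD8- DC (2 without replicate 2 of either), 0 to 1 for CD4+ against CD4-CD8- DC (1 without replicate 1 of either), and 0 to 1 for CDP against MDP, while it gave 5 for PDC against CDP, MDP and Gr1+ monocytes, 5 to 6 against MP and the spleen DC, where the added member was miR-188-5p, lower in PDC, and 5 to 6 highest in PDC. Signal over background limits miR-362-5p and miR-532-3p, at the floor outside PDC, and miR-501-3p, at the floor on all arrays but 1. With no filter the neighbours miR-188-3p and miR-501-5p enter the fit, but both lay at the floor on all 16 arrays, so it says nothing about them.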
